A study of Mus musculus with 4 samples.

Results

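The genes described here encode 9 receptors with which blood stem and progenitor cells find and hold their place in the bone marrow: the chemokine receptor Cxcr4, the integrin chains Itga4, Itga5, Itgb1, Itgal and Itgb2, the selectin ligand Selplg, the hyaluronan receptor Cd44 and the sphingosine-1-phosphate receptor S1pr1. They were chosen by name, and every non-control probe of the array that carries one of these names was used, which gave 17 of the array's 55681 probes. All 9 genes, among 28286 named genes with a signal, were well above background on all 4 arrays at their brightest probe, and 16 of the 17 probes were well above background on every array.

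The title of the study names p38 alpha, a stress-activated kinase, and its role in purine metabolism and cell cycling. It had 4 samples of mouse cells, each on 1 one-colour Agilent array. The groups were cKO LT-HSC, WT LT-HSC, cKO MPP and WT MPP. LT-HSC denotes long-term haematopoietic stem cells, sorted as CD34- Flt3- LSK cells, and MPP denotes multipotent progenitors, sorted as CD34+ Flt3+ LSK cells, where LSK stands for lineage-negative, Sca-1-positive and Kit-positive marrow. Donors were male C57BL/6J (Ly5.2) mice, 10 weeks old, either p38 cKO (a conditional knockout) or WT. Cells of all 4 groups, the WT ones included, had been stained with the dye CFSE, transplanted into Ly5.1 congenic mice irradiated with 9.5 Gy and sorted again as CFSE-positive cells from the marrow 16 h later, so no array shows cells that had not been transplanted. The driver of the Cre recombinase, the deleted exons and the number of mice behind each array are not given in the sources used here.

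Homing is the return of injected blood stem cells to the marrow. Cxcr4 senses the chemokine Cxcl12 made by marrow stroma and turns on integrins, which then bind ligands such as Vcam1, fibronectin and Icam1 on vessel walls and matrix, while Selplg and Cd44 serve the first rolling contacts with selectins and hyaluronan. S1pr1 answers to sphingosine-1-phosphate, which is high in blood and lymph, and is best known for guiding lymphocytes and progenitors out of tissues.

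Since every group has a single array, differences between arrays stand without replicates and are described by their size. Levels below are the processed signal of the scanner software (an intensity on a linear scale), and differences are log2 differences after each array was scaled to its 75th percentile. The error after ± is the one that the scanner software computes from the spots, and it leaves out variation between cells, sorts and RNA amplifications. A gene is called higher or lower at 2-fold or more at its brightest probe. The 4 arrays lay on 1 slide with 1 scan day, 62.5% to 70.5% of their spots were well above background, and 0 spots were saturated.

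Mapk14, which encodes p38 alpha, had 912, 1447, 1024 and 951 units at its brighter probe on the cKO LT-HSC, WT LT-HSC, cKO MPP and WT MPP arrays. At its other probe it had 490.5, 474, 595 and 621 units on the same arrays. The cKO minus WT difference within LT-HSC was -0.58 ± 0.20 at the brighter probe and 0.13 ± 0.20 at the other, and within MPP it was 0.13 ± 0.20 and -0.03 ± 0.20. Whether these probes lie in the deleted part is not known here, so they check nothing about the genotype, which rests on the labels alone. The sort genes Cd34 and Flt3 were lower on both LT-HSC arrays than on the MPP arrays: Cd34 had 3601 and 1169 units on the cKO and WT LT-HSC arrays, against 6331 and 7733 on the cKO and WT MPP arrays, and Flt3 had 189 and 177, against 365 and 515. Within LT-HSC, Cd34 was higher in cKO than in WT (1.70 ± 0.20, and 1.15 at its other probe). Of 13 stem cell and LSK markers, 12 were measured in LT-HSC minus MPP within cKO, 1 called higher and 3 lower. Within WT, 1 of 13 was called higher and 4 lower. Over all genes, 8.13% were higher and 6.69% lower in cKO, and 10.2% and 18.4% in WT. The marker called higher in each genotype was Ly6a (2.11 ± 0.20 in cKO and 1.96 ± 0.20 in WT). Mecom, a stem cell marker of this list, was lower in LT-HSC within cKO (-1.75 ± 0.26). In cKO minus WT, Mecom differed by -2.70 ± 0.25 within LT-HSC and by -0.82 ± 0.21 within MPP.

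Between the populations, S1pr1 and Itgb2 were higher and Itga5 was lower on the LT-HSC array than on the MPP array in both genotypes, which are separate pairs of arrays. In cKO, 2 of the 9 genes were called higher and 1 lower, where 8.13% of 27033 genes were called higher and 6.69% lower. In WT, 3 of the 9 were called higher, Itga4 being the third, and 1 lower, where 10.2% of 26655 genes were called higher and 18.4% lower. The median difference of the 9 genes was 0.30 in cKO and 0.41 in WT, beside medians of -0.09 and -0.20 over all genes. The sign was the same in cKO and WT for 7 of the 9 genes, the exceptions being Itgb1 and Itgal. Over all 21527 genes measured on every array, 69.5% had the same sign in both pairs.

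Between the genotypes, the most sizeable differences were a lower Itgb1 in cKO LT-HSC and a higher S1pr1 in cKO MPP. In LT-HSC, 0 of the 9 genes were called higher and 1 lower, where 10.8% of 27620 genes were called higher and 8.26% lower. In MPP, 1 of the 9 was called higher and 0 lower, where 2.41% of 25322 genes were called higher and 2.78% lower. The median difference of the 9 genes was -0.03 in LT-HSC and -0.14 in MPP, beside 0.10 and -0.06 over all genes, and 6 of the 9 had the same sign in both populations (50.02% of all genes did). The comparison of genotypes within LT-HSC and that of populations within WT share the WT LT-HSC array, and likewise each other array enters 1 comparison of each kind.

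At a lower call of 1.5-fold, Itga4 and Itga5 joined Itgb1 among the lower genes in cKO LT-HSC, where 0 of the 9 were higher and 3 lower, beside 21.5% and 15.2% of all genes. In MPP the count stayed at 1 higher and 0 lower, beside 7.92% and 9.84%. In LT-HSC minus MPP within cKO, 3 were higher, with Selplg added, and 2 lower, with Itgb1 added, beside 15.8% and 19.2% of all genes. Within WT 3 were higher and 1 lower, beside 17.3% and 31.6%.

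**Figure D1:**
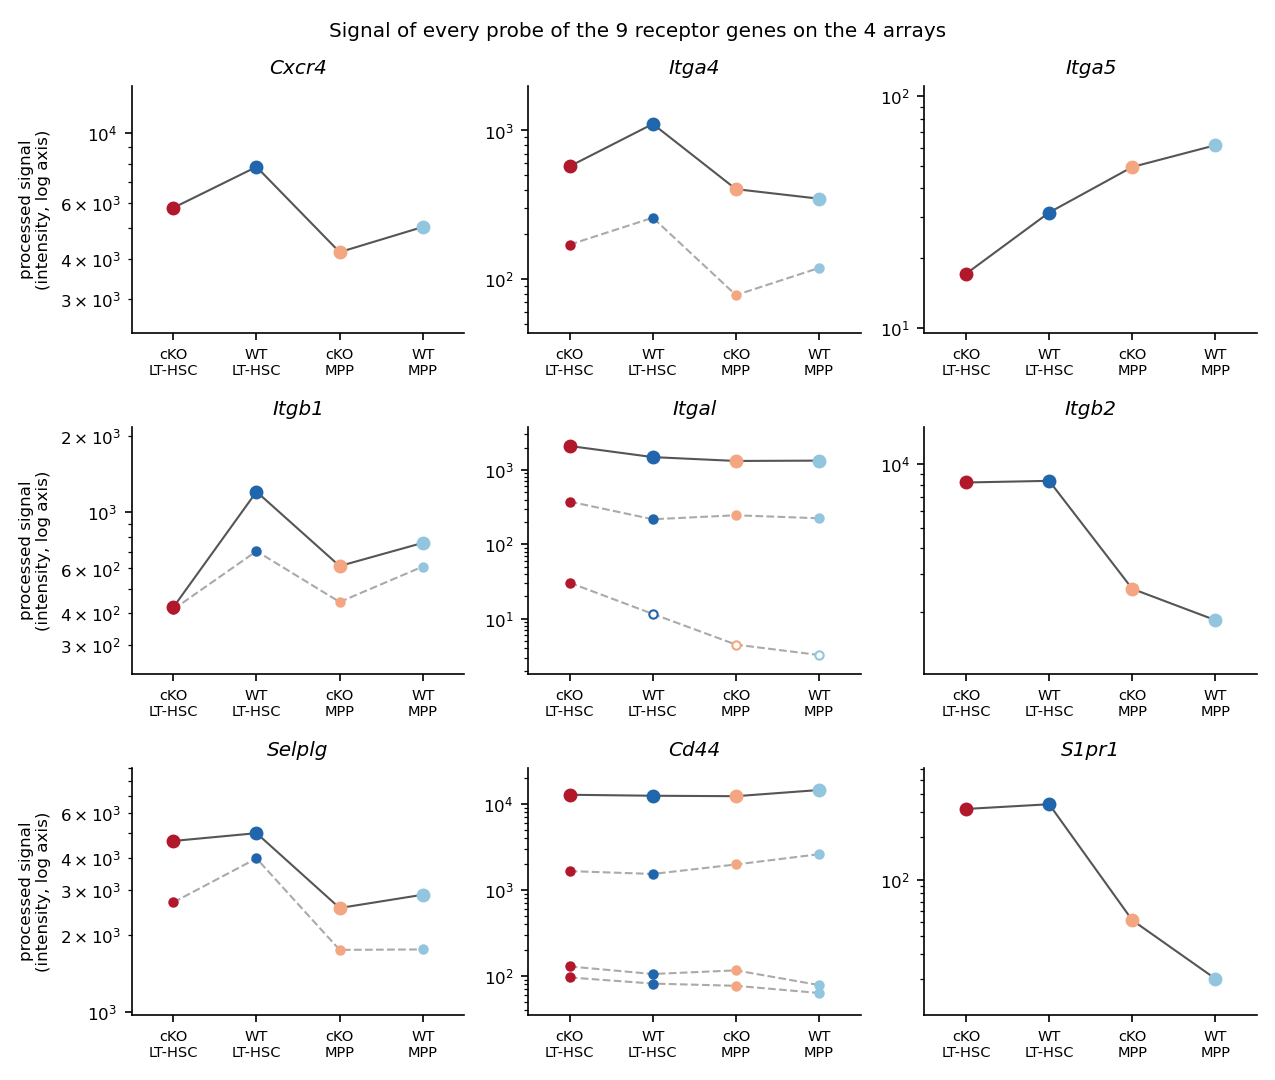
Processed signal (vertical axes, intensity on a log axis, a separate range per panel) of every probe of the 9 genes on the cKO LT-HSC, WT LT-HSC, cKO MPP and WT MPP arrays. Large points on a solid line are the brightest probe, small points on dashed lines the other probes, and open points are not well above background; S1pr1 and Itgb2 are high on both LT-HSC arrays and Itga5 is low on both.

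Cxcr4 and S1pr1 couple to G proteins and steer cells along gradients. Cxcr4 was read by 1 probe (mm9 chr1:130485079-130485138, minus strand). It had 5800.0 units in cKO LT-HSC, 7811 in WT LT-HSC, 4202 in cKO MPP and 5046 in WT MPP. The LT-HSC minus MPP difference was 0.26 ± 0.20 in cKO and 0.37 ± 0.20 in WT, and the cKO minus WT difference was -0.35 ± 0.20 in LT-HSC and -0.24 ± 0.20 in MPP. Cxcr4 was thus somewhat higher on the LT-HSC arrays and somewhat lower on the cKO arrays, by less than 2-fold throughout. Quantile normalization widened its LT-HSC minus MPP difference to 0.54 in cKO and 0.93 in WT. In the order of its levels, cKO LT-HSC and WT MPP were neighbours that did not differ beyond the scanner error (0.02 ± 0.20).

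S1pr1 was read by 1 probe (mm9 chr3:115414020-115414079, minus strand) and had the widest range of the 9 genes over the arrays, 3.82 on the log2 scale. It had 315 units in cKO LT-HSC, 340.1 in WT LT-HSC, 51.9 in cKO MPP and 20.1 in WT MPP, where the dimmest probe well above background had 15.4. The LT-HSC arrays lay 5.26-fold above the MPP array in cKO (log2 difference 2.40 ± 0.22) and 14.2-fold in WT (3.82 ± 0.32). Within LT-HSC the genotypes did not differ beyond the scanner error (-0.03 ± 0.20). In MPP the cKO array was 2.64-fold above the WT array (1.40 ± 0.33), a difference that shrank to 0.54 with normexp background correction and quantile normalization. The genotype difference in LT-HSC minus that in MPP was -1.43 ± 0.39, for which there is no replicate.

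The S1pr1 values stand beside signal of mature blood cells, which carry this receptor too. The 10 B cell markers summed to 45.3 and 81.3 times the array's 75th percentile on the cKO and WT LT-HSC arrays, against 20.1 and 16.5 on the cKO and WT MPP arrays, and 10 and 10 of them, against 6 and 6, were well above background. Cd79a, a chain of the B cell receptor, had 2569.7 and 5306 units on the cKO and WT LT-HSC arrays, against 103 and 103 on the cKO and WT MPP arrays, and Ms4a1 was not well above background on either MPP array. The 11 T and NK cell markers summed to 36.5 and 34.2 on the LT-HSC arrays of cKO and WT, against 32.2 and 32.8 on the MPP arrays, and all 11 were well above background on both LT-HSC arrays, against 7 and 6 on the MPP arrays. The part of these cells in the result was not tested, and more cells of a type and more RNA per cell cannot be told apart in such bulk samples.

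Because S1pr1 and Cxcr4 signalling is shaped by a common set of genes, 19 genes below these receptors were read, all measured in each comparison. In LT-HSC minus MPP, 1 was called higher and 0 lower in cKO, and 1 higher and 3 lower in WT. Over all genes, 8.13% were called higher and 6.69% lower in cKO, and 10.2% and 18.4% in WT. The higher one of the 19 in each genotype was Klf2, a transcription factor known in lymphocytes to switch on S1pr1. Klf2 had 4702 and 7937 units on the cKO and WT LT-HSC arrays, against 1547 and 2791 on the cKO and WT MPP arrays, so the LT-HSC minus MPP difference was 1.40 ± 0.20 in cKO and 1.25 ± 0.20 in WT. Dock2, a regulator of Rac in leukocyte migration, differed by 0.87 ± 0.21 in LT-HSC minus MPP within cKO and by -1.08 at its other probe. The cKO minus WT difference of Klf2 in MPP was -0.82 ± 0.20, opposite in sign to that of S1pr1 in the same pair of arrays. Rgs1, which shortens signalling of such receptors, was called lower in cKO MPP (2265 units, against 5400.2 in WT MPP, a difference of -1.22 ± 0.20). In cKO minus WT within LT-HSC, 2 of the 19 were called higher and 2 lower, beside 10.8% and 8.26% of all genes. Arrb2, a beta-arrestin, had 1800.4 units in cKO LT-HSC and 775 in WT LT-HSC (1.30 ± 0.20). Gna13, a G protein chain, differed by 2.26 ± 0.20 there, while its other probes ran from -1.69 to 2.25.

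The upstream sequence of Cxcr4 is shown because its product senses Cxcl12 and its start region carries a TATA-like element. That of Itga4 is shown beside it for contrast. Both give the 250 bases before the start of the gene (RefSeq, GRCm38.p6), Cxcr4 at chr1:128592300-128592549 on the minus strand and Itga4 at chr2:79255176-79255425 on the plus strand, with matches to TATAAAA and GGGCGG on either strand in capitals.
Cxcr4: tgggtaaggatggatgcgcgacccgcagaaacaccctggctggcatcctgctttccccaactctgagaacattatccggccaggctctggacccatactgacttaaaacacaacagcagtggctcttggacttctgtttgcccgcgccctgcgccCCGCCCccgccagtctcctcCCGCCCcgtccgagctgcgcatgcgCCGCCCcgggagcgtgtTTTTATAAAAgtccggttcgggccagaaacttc
Itga4: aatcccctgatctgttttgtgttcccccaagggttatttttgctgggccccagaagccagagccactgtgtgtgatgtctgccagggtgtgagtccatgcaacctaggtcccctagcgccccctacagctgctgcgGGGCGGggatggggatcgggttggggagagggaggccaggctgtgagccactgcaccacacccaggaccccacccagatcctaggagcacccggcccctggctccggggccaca
Of the 9 genes, 5 matched an entry by symbol. TATAAAA was searched on both strands and found in the Cxcr4 sequence once on each strand, in overlapping positions. It was found in 4.98% of 32851 promoter windows of this length. GGGCGG was found 3 times in the Cxcr4 sequence, on the reverse strand, and 1 time in that of Itga4, and it occurs in 32.74% of the windows. A match is only a match of letters.

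The beta-2 integrins pair Itgb2 with an alpha chain. With Itgal it forms LFA-1, the leukocyte receptor for Icam1. Itgb2 (mm9 chr10:77027978-77028037, plus strand) had 8189 units in cKO LT-HSC, 8337 in WT LT-HSC, 2565 in cKO MPP and 1822 in WT MPP. Both LT-HSC arrays were near each other and well over both MPP arrays: the LT-HSC minus MPP difference was 1.47 ± 0.20 in cKO (2.77-fold) and 1.93 ± 0.20 in WT (3.82-fold). The cKO minus WT difference was 0.06 ± 0.20 in LT-HSC and 0.52 ± 0.20 in MPP.

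Itgb2 is carried by nearly all mature leukocytes. The 10 neutrophil granule markers summed to 307 and 253 times the array's 75th percentile on the cKO and WT LT-HSC arrays, against 163 and 93.3 on the cKO and WT MPP arrays. Between the populations, 7 of the 10 were called higher on the LT-HSC array in cKO and 9 of the 10 in WT, with medians of 1.03 and 1.62, where 8.13% and 10.2% of all genes were called higher. The remaining one in WT, Cebpe, a granulocyte transcription factor, was called lower (-1.36). In cKO minus WT within MPP, 4 of the 10 were called higher, with a median of 0.84, where 2.41% of all genes were called higher. S100a8, a granulocyte calcium-binding protein, had 9418 and 7862 units on the cKO and WT LT-HSC arrays, against 3966 and 1989 on the cKO and WT MPP arrays. The 11 macrophage markers went the other way between the populations. They summed to 5.47 and 5.40 on the cKO and WT LT-HSC arrays, against 39.4 and 13.8 on the cKO and WT MPP arrays. In cKO minus WT within MPP they went the same way as the neutrophil granule markers. There 11 of the 11 were called higher, with a median of 1.44, beside 2.41% of all genes. The part of either cell type in the Itgb2 values was not tested.

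Itgal ordered the arrays in another way than Itgb2. Its brightest probe (mm9 chr7:134477160-134477219, plus strand) had 2099 units in cKO LT-HSC, 1488 in WT LT-HSC, 1321 in cKO MPP and 1335 in WT MPP. Its second probe (chr7:134477064-134477123) had 375, 217, 246 and 224 units on these arrays. The cKO LT-HSC array was the high one at both probes. After scaling, the other 3 arrays lay close together at the brightest probe, and WT LT-HSC was the lowest array at both. Within LT-HSC the cKO minus WT difference was 0.58 ± 0.20 and 0.87 ± 0.21 at the probes, and in MPP it was 0.01 ± 0.20 and 0.16 ± 0.21. Between the populations, the brightest probe gave 0.46 ± 0.20 in cKO and -0.10 ± 0.20 in WT, the WT value turning to 0.20 with quantile normalization. With the mean of all its probes Itgal gave 1.14 in cKO, past 2-fold, and 0.39 in WT. The third probe (chr7:134474711-134474767) was well above background in cKO LT-HSC alone, at 30.5 units, and was at least 2.75-fold higher there than in WT LT-HSC (11.6 units) and at least 2.20-fold higher than in cKO MPP (4.49 units). These bounds set the cKO LT-HSC signal against the lowest signal of a probe well above background on the other array, which was 11.7 units in WT LT-HSC and 12.0 in cKO MPP.

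**Figure D2:**
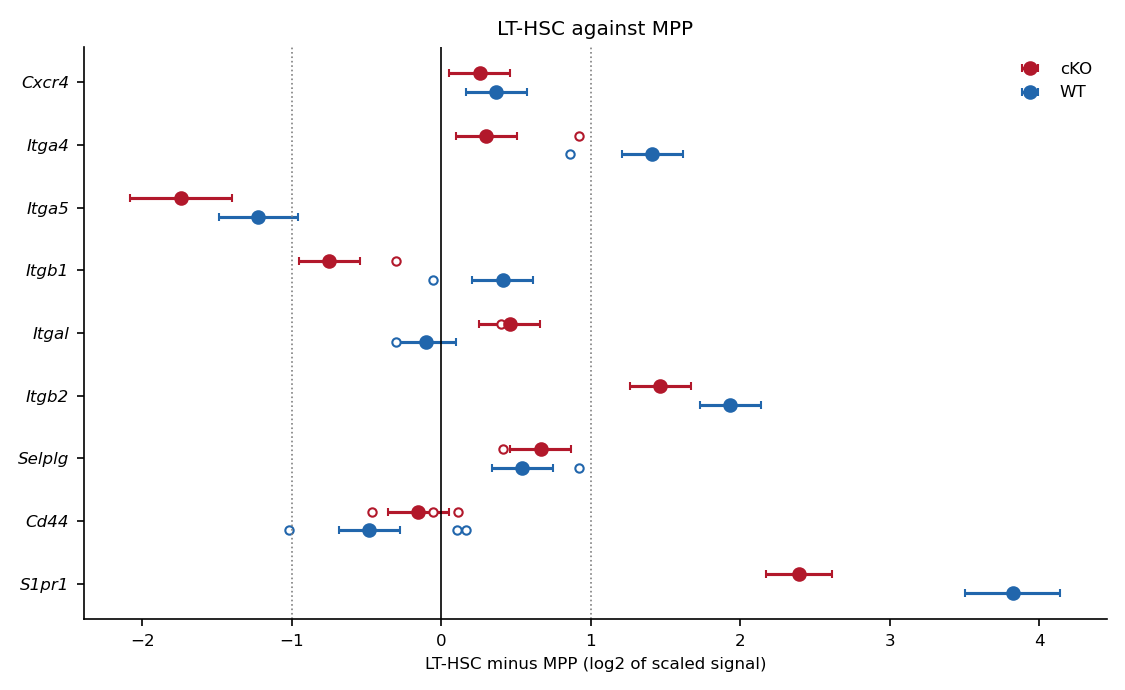
LT-HSC minus MPP difference (horizontal axis, log2 of scaled signal) of the 9 genes in cKO (red) and WT (blue). Filled points are the brightest probe with the scanner error, open points the other probes measured on both arrays, and dotted lines mark 2-fold; S1pr1 (2.40 and 3.82) and Itgb2 (1.47 and 1.93) lie right of the line in both genotypes and Itga5 (-1.74 and -1.22) lies left of it.

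The beta-1 integrins pair Itgb1 with Itga4, as VLA-4, the receptor for Vcam1 and fibronectin, or with Itga5, as VLA-5, a fibronectin receptor. The probes of Itgb1 and the gapped probe of Itga4 are shown because results at different probes of these genes differed in size. The first Itgb1 probe (mm9 chr8:131250081-131255976, plus strand) is placed over a gap in the genome, and the capitals mark codons of NPxY motifs, which the cytoplasmic tail of Itgb1 is known to carry and to which talin and kindlin bind. The second lies upstream of it (chr8:131246349-131246408, plus strand), and the Itga4 probe is placed over a gap too (chr2:79153985-79155115, plus strand). The names of probes used below rest on their letters and coordinates, since no annotation of mm9 was used here.
Itgb1, tail probe: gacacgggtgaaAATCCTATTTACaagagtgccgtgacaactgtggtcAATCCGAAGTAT
Itgb1, upstream probe: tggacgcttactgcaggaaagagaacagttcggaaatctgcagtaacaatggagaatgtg
Itga4, gapped probe: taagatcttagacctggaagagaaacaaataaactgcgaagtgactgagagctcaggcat

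At the tail probe, the brighter of the pair, Itgb1 had 422 units in cKO LT-HSC, 1205 in WT LT-HSC, 613 in cKO MPP and 757 in WT MPP. At the upstream probe it had 414 units in cKO LT-HSC, 702 in WT LT-HSC, 442.5 in cKO MPP and 610.3 in WT MPP. After scaling, cKO LT-HSC was the lowest array at both probes, while the highest was WT LT-HSC at the tail probe and, within the scanner error of it, WT MPP at the upstream probe. Within LT-HSC the cKO minus WT difference was -1.43 ± 0.20 at the tail probe (2.70-fold lower) and -0.68 ± 0.20 at the upstream probe (1.60-fold lower). In MPP it was -0.27 ± 0.20 and -0.43 ± 0.20, so cKO was below WT at both probes in both populations. The LT-HSC minus MPP difference was -0.75 ± 0.20 in cKO and 0.41 ± 0.20 in WT at the tail probe, and -0.30 ± 0.20 and -0.06 ± 0.20 at the upstream probe.

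Stromal cells also express Itgb1, and stromal signal differed between the same arrays. The 9 stromal and endothelial markers, of which 8 were measured, summed to 8.35 in cKO LT-HSC and 43.4 in WT LT-HSC, and to 10.6 and 10.71 on the cKO and WT MPP arrays, in multiples of the array's 75th percentile. In cKO minus WT within LT-HSC, 6 of the 8 were called lower, with a median of -2.91, where 8.26% of all genes were called lower. Pdgfra was not well above background on any array. The part of this signal in the Itgb1 difference was not tested.

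Itga4 was read by a probe at mm9 chr2:79173193-79173252 (plus strand) and by the gapped probe shown above. The brighter one had 574 units in cKO LT-HSC, 1107 in WT LT-HSC, 403 in cKO MPP and 347 in WT MPP. The gapped probe had 171 units in cKO LT-HSC, 259 in WT LT-HSC, 78.1 in cKO MPP and 119 in WT MPP. Both probes had their highest signal in WT LT-HSC and lower signal on both MPP arrays. The LT-HSC minus MPP difference was 0.30 ± 0.20 in cKO and 1.41 ± 0.20 in WT at the brighter probe, and 0.92 ± 0.21 and 0.86 ± 0.21 at the gapped probe. Within LT-HSC cKO minus WT gave -0.87 ± 0.20 at the brighter probe and -0.52 ± 0.21 at the gapped probe. In MPP the probes had opposite signs, 0.24 ± 0.20 and -0.58 ± 0.21.

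Itga5 was dim on all arrays. Its probe (mm9 chr15:103175022-103175081, minus strand) had 17.2 units in cKO LT-HSC, 31.5 in WT LT-HSC, 49.5 in cKO MPP and 61.5 in WT MPP, where the dimmest probes well above background had 11.7 to 15.4 units. Itga5 was thus lower on both LT-HSC arrays than on either MPP array. The LT-HSC minus MPP difference was -1.74 ± 0.34 in cKO and -1.22 ± 0.26 in WT, and with normexp and quantile normalization it was -0.56 and -0.47. The cKO minus WT difference was -0.80 ± 0.36 in LT-HSC and -0.28 ± 0.24 in MPP. Macrophages carry this chain too, and the 11 macrophage markers summed to 5.47 and 5.40 on the cKO and WT LT-HSC arrays, against 39.4 and 13.8 on the cKO and WT MPP arrays, with 7 and 7 of them, against 11 and 9, well above background. Their part in the Itga5 result was not tested.

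Of 19 genes that activate integrins or link them to the cytoskeleton, 4 were called higher and 0 lower on the LT-HSC array in cKO. In WT, 4 were called higher and 2 lower. The shares over all genes were 8.13% higher and 6.69% lower in cKO, and 10.2% and 18.4% in WT. Cd82, a tetraspanin that associates with integrins, had 1176 and 1428 units on the cKO and WT LT-HSC arrays, against 216 and 199.8 on the cKO and WT MPP arrays (2.24 ± 0.20 in cKO and 2.58 ± 0.21 in WT). Its other probes ran from -0.07 to 0.69 in cKO and from 1.22 to 1.95 in WT. Cyth1, which binds the tail of beta-2 integrins, had 352 and 224 units on the cKO and WT LT-HSC arrays, against 47.3 and 55.3 on the cKO and WT MPP arrays (2.69 ± 0.23 in cKO and 1.76 in WT). Its other probe gave 1.25 in cKO and 1.64 in WT. Itgb1bp1, which binds the Itgb1 tail and holds it inactive, differed by -3.23 ± 0.21 in WT, but by 0.04 at its other probe.

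In cKO minus WT, 2 of these 19 genes were called higher and 1 lower in LT-HSC, and 0 higher and 0 lower in MPP. The shares over all genes were 10.8% higher and 8.26% lower in LT-HSC, and 2.41% and 2.78% in MPP. Pxn, the focal adhesion adaptor paxillin, had 372 units in cKO LT-HSC and 2179 in WT LT-HSC (-2.47 ± 0.20). Vcl, the focal adhesion protein vinculin, differed by 3.52 ± 0.21 in LT-HSC at its brightest probe and by -0.41 at its other probe. In MPP the differences named by size were those of Rassf5, a Rap1 effector that acts on LFA-1 (-0.67 ± 0.20), and of Itgb1bp1 (-0.49 ± 0.20, and -0.47 at its other probe).

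**Figure D3:**
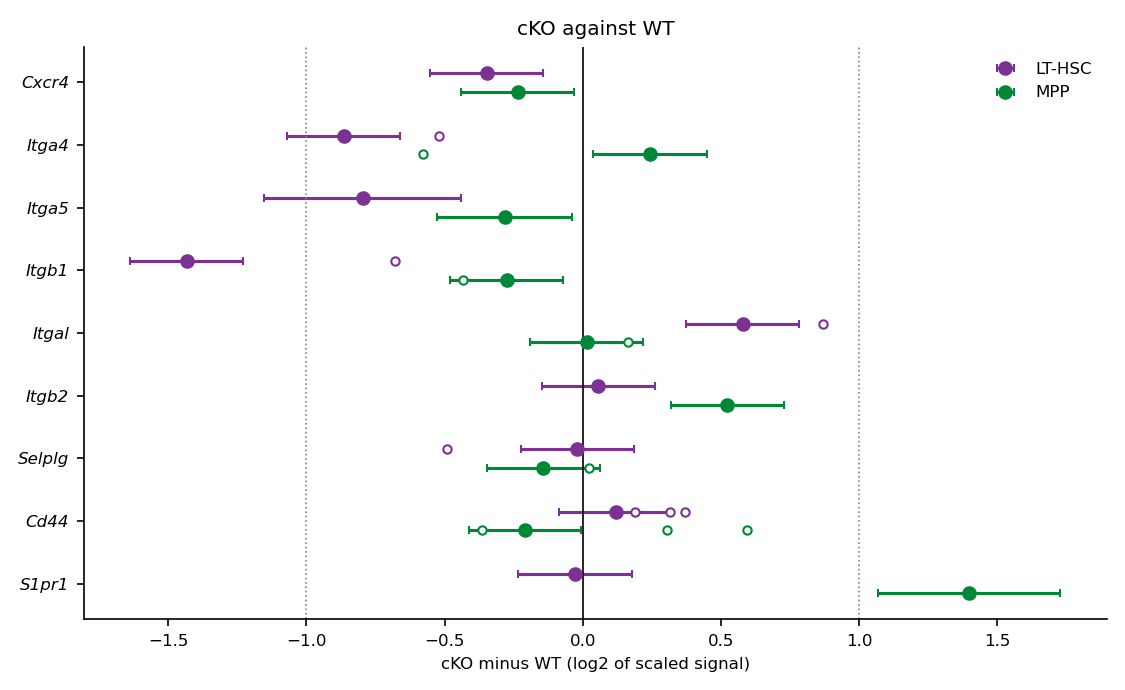
Difference between cKO and WT (horizontal axis, cKO minus WT, log2 of scaled signal) of the 9 genes in LT-HSC (purple) and MPP (green). Filled points are the brightest probe with the scanner error, open points the other probes measured on both arrays, and dotted lines mark 2-fold; Itgb1 in LT-HSC (-1.43) and S1pr1 in MPP (1.40) are the filled points past 2-fold.

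Selplg encodes PSGL-1, the mucin that binds P-, E- and L-selectin once it carries the right sugars. The brighter of its probes is shown because its letters hold, in an open frame, a run of hydrophobic codons of the kind that makes a membrane span (mm9 chr5:114269206-114269265, minus strand).
Selplg, hydrophobic stretch probe: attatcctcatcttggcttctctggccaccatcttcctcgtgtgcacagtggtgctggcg
At this probe Selplg had 4669 units in cKO LT-HSC, 5009 in WT LT-HSC, 2550.1 in cKO MPP and 2874 in WT MPP. At the other probe (chr5:114267807-114267834 in the files, which place 28 of its bases) it had 2684, 3988, 1748 and 1754 units on the same arrays. Selplg was higher on the LT-HSC array in both genotypes at both probes, by less than 2-fold, although quantile normalization put the WT difference at its brighter probe at 1.01. The LT-HSC minus MPP difference was 0.67 ± 0.20 in cKO and 0.54 ± 0.20 in WT at the hydrophobic stretch probe, and 0.41 ± 0.20 and 0.92 ± 0.20 at the other. At the hydrophobic stretch probe, cKO minus WT gave -0.02 ± 0.20 within LT-HSC and -0.14 ± 0.20 within MPP, both within the scanner error, with -0.49 ± 0.20 and 0.02 ± 0.20 at the other.

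Of 12 enzymes that build selectin ligands, all measured in LT-HSC minus MPP, 2 were called higher and 2 lower in cKO. In WT, 3 were called higher and 2 lower. The shares over all genes were 8.13% higher and 6.69% lower in cKO, and 10.2% and 18.4% in WT. St3gal6, a sialyltransferase for selectin ligands, had 146 and 466 units on the cKO and WT LT-HSC arrays and was not well above background on the MPP arrays (3.98 units in cKO and 6.79 in WT), so the log2 difference was at least 3.40 in cKO and at least 4.66 in WT. C1galt1, which makes the core O-glycan of PSGL-1, differed by 1.83 ± 0.22 in cKO and 1.44 in WT, and St3gal3, another sialyltransferase, by -1.18 ± 0.21 in cKO and -1.05 in WT. Within LT-HSC, St3gal6 was lower on the cKO array (-1.59 ± 0.21), 1 of 2 enzymes called lower there, where 8.26% of all genes were lower. Of the 12, 1 was called higher, beside 10.8% of all genes. That one was Gcnt1, which branches core O-glycans (1.28 ± 0.20, and -0.39 at its other probe). Within MPP, 0 of 11 measured were called in either direction, beside 2.41% higher and 2.78% lower of all genes. Gcnt1 differed by -0.90 ± 0.20 there (-0.17 at its other probe), and Tpst1, which sulphates PSGL-1, by 0.65 ± 0.25.

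Cd44 binds hyaluronan and, with suitable sugars, E-selectin, and exons in the middle of its gene are known to be spliced in or out. Its probes are shown because they lie at different places in the gene. The first holds codons of the known carboxy-terminal end with the stop codon in capitals (mm9 chr2:102654278-102654337, minus strand). The others lie upstream of it (chr2:102672645-102672704 and chr2:102677971-102678030, minus strand), and which exons they read was not looked up.
Cd44, end of coding sequence: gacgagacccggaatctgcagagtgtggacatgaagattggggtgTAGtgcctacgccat
Cd44, first upstream probe: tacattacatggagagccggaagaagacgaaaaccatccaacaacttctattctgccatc
Cd44, second upstream probe: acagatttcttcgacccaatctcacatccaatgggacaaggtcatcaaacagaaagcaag

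The brightest Cd44 probe (chr2:102651398-102651457, minus strand) had 12684 units in cKO LT-HSC, 12356 in WT LT-HSC, 12209.9 in cKO MPP and 14402 in WT MPP. The probe at the end of the coding sequence had 1651 units in cKO LT-HSC, 1531 in WT LT-HSC, 1973 in cKO MPP and 2593 in WT MPP. WT MPP was the highest array at both. The first upstream probe had 129 units in cKO LT-HSC, 106 in WT LT-HSC, 117 in cKO MPP and 78.7 in WT MPP. The second upstream probe had 96.4, 81.9, 77.2 and 63.7 units on these arrays. WT MPP was the lowest array at both upstream probes, opposite to the other pair.

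Within MPP the cKO minus WT difference was -0.21 ± 0.20 and -0.37 ± 0.20 at the brightest probe and the end of the coding sequence, and 0.60 ± 0.22 and 0.31 ± 0.22 at the upstream probes. In LT-HSC minus MPP within WT, the 4 probes gave -0.48 ± 0.20, -1.02 ± 0.20, 0.17 ± 0.22 and 0.10 ± 0.22 in the same order, and within cKO they gave -0.15 ± 0.20, -0.46 ± 0.20, -0.06 ± 0.21 and 0.11 ± 0.21. In cKO minus WT within LT-HSC all 4 were above 0 (0.12 to 0.37). The sign of the population difference at the brightest probe moved with the scaling: quantile normalization gave 0.16 in cKO and 0.11 in WT, and quantile normalization after normexp background correction gave 0.16 and 0.10.

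The ligands of these receptors are made chiefly by stroma, vessels and macrophages, so their signal in sorted blood cells was read as a description of what the samples held. The list read here also holds hyaluronan synthases and genes that make, move or break down sphingosine-1-phosphate, which are not ligands themselves. Of 16 genes of this list measured in cKO minus WT within LT-HSC, 3 were called higher and 4 lower, beside 10.8% and 8.26% of all genes. The 3 higher were Fn1 and the hyaluronan synthases Has1 and Has3, and the 4 lower were Cxcl12, Vcam1, Icam1 and Spp1. Cxcl12 had 199.9 units in cKO LT-HSC, 5118 in WT LT-HSC, 153 in cKO MPP and 94.9 in WT MPP, which sets WT LT-HSC apart (5.49 ± 0.21 in LT-HSC minus MPP within WT and -4.60 ± 0.21 in cKO minus WT within LT-HSC). Vcam1, which is also a macrophage marker, had 15.998 units in cKO LT-HSC, 339 in WT LT-HSC, 1896 in cKO MPP and 714 in WT MPP. Its LT-HSC minus MPP difference was -7.10 ± 0.31 in cKO and -1.33 ± 0.20 in WT. The cKO LT-HSC level of Vcam1 lay near the dimmest probe well above background on that array (12.6 units). Its other probe was not measured on both arrays of either pair. Fn1, fibronectin, differed by 1.37 ± 0.26 in LT-HSC minus MPP within WT, and its level was 219 and 112 units on the cKO and WT LT-HSC arrays, against 29.4 and 36.5 on the cKO and WT MPP arrays. Has3 had 189 units in cKO LT-HSC, 20.0 in cKO MPP and 61.2 in WT MPP, and was not well above background in WT LT-HSC (14.4 units). It differed by 3.03 ± 0.31 in LT-HSC minus MPP within cKO and by -1.59 ± 0.32 in cKO minus WT within MPP. Within WT, LT-HSC minus MPP had the opposite sign, with a bound of -2.34. The cKO MPP level of Has3 lay near the dimmest probe well above background on that array (12.0 units). In the other comparisons, 1 of 13 measured genes of this list was called higher and 1 lower (cKO minus WT in MPP), 3 of 15 higher and 1 lower (LT-HSC minus MPP in cKO), and 3 of 14 higher and 3 lower (LT-HSC minus MPP in WT). In the same order, the shares of all genes higher and lower were 2.41% and 2.78%, 8.13% and 6.69%, and 10.2% and 18.4%.

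Of 9 measured proteases that trim these receptors or Cxcl12, 1 was called higher and 1 lower in cKO minus WT within LT-HSC. Over all genes, 10.8% were called higher and 8.26% lower there. Mmp9, a gelatinase of granulocytes that cleaves Cxcl12, had 208 units in cKO LT-HSC, 14.8 in WT LT-HSC, 84.5 in cKO MPP and 46.9 in WT MPP (3.94 ± 0.12 in cKO minus WT within LT-HSC). Its WT LT-HSC level lay near the dimmest probe well above background on that array (11.7 units). Adam17, which sheds L-selectin and other adhesion molecules, was the one lower (-1.05 ± 0.21, and -1.35 at its other probe). In MPP, 0 of 8 were called, beside 2.41% higher and 2.78% lower of all genes, and Dpp4, which clips Cxcl12, differed by -0.75 ± 0.21. Ctsg, a granule protease, was lower in LT-HSC than in MPP in both genotypes (-1.88 ± 0.20 in cKO and -1.91 ± 0.20 in WT). The counts there were 2 higher and 1 lower of 9 in cKO and 1 higher and 3 lower of 9 in WT. All genes gave 8.13% and 6.69% in cKO and 10.2% and 18.4% in WT.

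Among other adhesion and chemoattractant receptors, 12 of 35 measured were called higher and 4 lower on the LT-HSC array in cKO, and 11 of 34 higher and 5 lower in WT, beside the shares over all genes of 8.13% and 6.69% in cKO and 10.2% and 18.4% in WT. S1pr3, another receptor for sphingosine-1-phosphate, ran opposite to S1pr1. It had 53.7 and 35.3 units on the cKO and WT LT-HSC arrays, against 495.5 and 373 on the cKO and WT MPP arrays, so LT-HSC minus MPP was -3.41 ± 0.22 in cKO and -3.66 ± 0.23 in WT. Cx3cr1, the fractalkine receptor of myeloid and NK cells, differed by 3.90 ± 0.22 in cKO and 1.84 in WT, and Itgax, an integrin chain of dendritic cells, by 3.40 ± 0.29 in WT. In cKO minus WT, 5 of 34 were called higher and 8 lower in LT-HSC, led by Itga2 (-3.05 ± 0.31) and Pecam1 (2.39 ± 0.15), and 1 of 30 higher and 1 lower in MPP. All genes gave 10.8% higher and 8.26% lower in LT-HSC, and 2.41% and 2.78% in MPP. Itgav, the alpha-v integrin chain, differed by -0.89 ± 0.23 in MPP at its brightest probe and by 1.29 at its other probe.

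**Figure D4:**
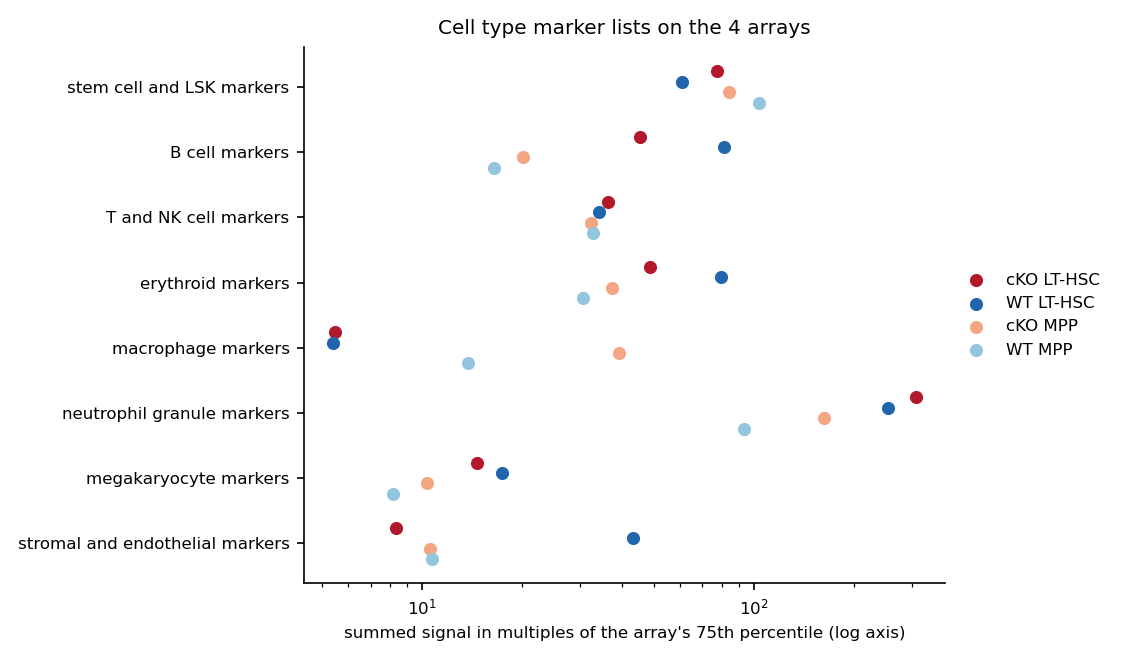
Summed signal of 8 cell type marker lists (horizontal axis, multiples of the array's 75th percentile, log axis) on the cKO LT-HSC, WT LT-HSC, cKO MPP and WT MPP arrays. B cell (45.3 and 81.3) and neutrophil granule markers (307 and 253) are highest on the LT-HSC arrays, macrophage markers in cKO MPP (39.4) and stromal markers in WT LT-HSC (43.4).

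Differences shared by both genotypes or both populations were tested with limma on the 25838 genes with signal on 2 or more arrays, in an additive model with 1 residual degree of freedom. For population, limma passed 0 genes at an adjusted p of 0.05, with 4092 genes (15.84%) at an unadjusted p under 0.05 and a lowest adjusted p of 0.0656. Of the 9 receptors, 3 were among those 4092. S1pr1 differed by 3.11 ± 0.47 (SE, with a limma adjusted p = 0.1978), Itgb2 by 1.70 ± 0.30 (limma adjusted p = 0.2288) and Itga5 by -1.48 ± 0.30 (limma adjusted p = 0.2655), each with the same sign in 2 of 2 pairs of arrays. The only residual of the fit is the disagreement between the pairs, so a shared sign largely follows from a low p and adds no support. None of these genes passed the correction. Itga4 (0.86 ± 0.40) and Selplg (0.60 ± 0.27) had limma adjusted p-values of 0.3792 and 0.3687.

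For genotype, limma passed 0 genes, with 929 (3.595%) at an unadjusted p under 0.05, and 0 of the 9 receptors were among these. Itgb1 differed by -0.85 ± 0.41 (limma adjusted p = 0.9727), lower in 2 of 2 pairs, and S1pr1 by 0.69 ± 0.47 (limma adjusted p = 0.9727). In simulated data of the same size, 50 genes at each of the log2 sizes 1, 2, 3 and 4 carried a shared difference, and all others carried none. Of the 50 at size 4, 0% passed the adjusted threshold in limma for either factor, although 100% reached an unadjusted p under 0.05. Passing depends on the share of genes that differ, which was set in the simulation. It therefore cannot say what the fit could detect in the real arrays.

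The profiles over the 4 arrays were compared by the root mean square distance of centred log2 levels. Cxcr4 and Selplg were the closest of the 9 genes to each other (0.19), and Selplg was also the nearest of the 9 to Itga4 (0.35) and Itgal (0.30). S1pr1 stood far from the rest, its nearest being Itgb2 (0.77), and Itga5 likewise, its nearest being Cd44 (0.67). Among 21526 genes measured on all arrays, those nearest to S1pr1 were Ifi208 (0.18), Cybb (0.25) and Pdzd4 (0.27), and 0 lay within 0.1. For Itga5, 7 genes lay within 0.1, among them Tbl3 (0.08) and Chd1l (0.08), beside a transcript named only by its Ensembl ID. These distances rest on 4 points that share their arrays and are given without a test.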

How the data were processed

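The deposited scanner tables hold the authors' linear spot intensity, extracted with Agilent Feature Extraction (the file headers name version 10.7.3.1, the submitters' processing notes 9.5.3), on array design 028005 with mm9 coordinates. Per the file headers, flags of each spot are a score of 0 or 1. The authors' series table was deposited as a ratio of each signal to the probe's own level; it was used only as an alternative, its direction was that of the scanner values, and the rule behind its scaling stays unknown (column medians 97.5, 91.9, 102.4 and 107.3 for cKO LT-HSC, WT LT-HSC, cKO MPP and WT MPP).

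The log2 of the processed signal minus its 75th percentile on that array (non-control probes) was taken after leaving out 137 to 151 outlier spots per array, and spots of a probe were averaged. A gene's brightest probe represents it; the other probes are given beside it. Gene symbols come from the table of the GRCm38.p6 assembly (26746 probes by accession, 3818 by symbol, 639 by older symbol, and 24461 keep the name in the file). Where 1 array of a pair was not well above background, the difference is a bound. Shared differences were fitted with limma 3.58.1 (R 4.3.3) with Benjamini-Hochberg adjustment and tested on simulated data.

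The members and lists were chosen with earlier results of these data known. Beside the 9 receptors, the rule for named genes took the 2 measured genes of each list with the largest difference in each comparison. For the lists of pathway genes the text names all of these, but not in every comparison for which the rule took them. Has1, Icam1 and Spp1 are also named, as genes called in a count. For the lists of cell type markers it names only some, and Flt3, Ms4a1, Pdgfra, S100a8 and Cebpe were chosen after their values were seen. Alternatives were 4 other scalings or corrections, the series table, the mean of a gene's probes, other filters on dim probes and a 1.5-fold call.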

Additional observations from a re-analysis of the deposited data

Results flagged for a closer look

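For 3 probes the difference had opposite signs in the groups set side by side, with both values beyond the scanner error. Probes with opposite signs of which 1 value or both lay within that error were not picked out. With 1 array on each side, none of these contrasts between groups was tested. The brighter Itga4 probe had a cKO minus WT difference of -0.87 in LT-HSC and 0.24 in MPP, which are -1.11 ± 0.29 apart. At the gapped probe of Itga4 the differences were -0.52 and -0.58. The tail probe of Itgb1 had an LT-HSC minus MPP difference of -0.75 in cKO and 0.41 in WT, which are -1.16 ± 0.29 apart, while its upstream probe had -0.30 and -0.06. The second Itgal probe had an LT-HSC minus MPP difference of 0.40 in cKO and -0.30 in WT, 0.71 ± 0.29 apart, and its brightest probe had 0.46 and -0.10.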

How the results depend on the processing

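Itgb1 in cKO minus WT within LT-HSC (-1.63 to -1.06), Itgb2 and S1pr1 in LT-HSC minus MPP (1.38 to 1.72 and 1.65 to 2.51 in cKO, 1.93 to 2.43 and 2.18 to 3.97 in WT) and Itga4 in WT (1.14 to 1.57) stayed past 2-fold in all 8 alternatives. Not all of these could move the values. The filters on dim probes could not, since the brightest probes were well above background on every array. The series table held nearly the same values, and averaging probes changes nothing for S1pr1 and Itgb2, which have 1 probe each. With normexp correction and quantile normalization, Itga5 shrank to -0.56 in cKO and -0.47 in WT and S1pr1 in cKO minus WT within MPP to 0.54, so that 0 members were called lower in LT-HSC minus MPP in cKO, 0 lower in WT, and 0 higher in cKO minus WT within MPP, where 1.62%, 6.44% and 0.383% of all genes were called. Scaling to the array's median called 2 members lower in cKO minus WT within LT-HSC (10.8% of all genes), and a 1.5-fold call gave 3 there and 2 lower in LT-HSC minus MPP in cKO. In that comparison 3 members were higher with averaged probes (8.07% of all genes), Itgal being added. Its average takes in the third probe, which was not well above background on the cKO MPP array. In WT 4 were higher with quantile normalization (11.7%), Selplg being added. The members' median moved to -0.25 in cKO minus WT within LT-HSC when a gene's probes were averaged. In LT-HSC minus MPP it moved to 0.54 (quantile), 0.53 (normexp and quantile) and 0.54 (mean of probes) in cKO, and to 0.93 (quantile) and 0.88 (normexp and quantile) in WT. Population differences passing in limma numbered 101 when the percentile was taken over probes with signal on every array, 59 with normexp and quantile normalization and 58 when such probes alone were fitted, with 0 of the 9 receptors among them each time. The cause of these shifts was not tested. Of the values for single genes, 250 stayed within the scanner error and 38 moved. The 250 include values that a setting could not change, such as those under the filters on dim probes.

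Median scaling moved the median of all genes in cKO minus WT within LT-HSC to -0.10, against 0.10. Of the genes called there, 56.7% were higher, against 43.1% with median scaling and 45.4% with normexp and quantile normalization. In MPP 46.4% were higher, against 65.1% with normexp and quantile normalization. In LT-HSC minus MPP the share was 54.9% in cKO, against 65.5% with the other percentile and 68.7% with normexp and quantile normalization, and 35.7% in WT, against 45.9%, 45.6% (quantile) and 50.6% (normexp and quantile). Itga5 and, in WT MPP, S1pr1 lay near the lowest signal well above background, which limits their differences. The same holds for Vcam1 in cKO LT-HSC, Mmp9 in WT LT-HSC and Has3 in cKO MPP. No paired analysis was possible because each group has 1 array, and no replicate could be left out.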
